A study of Mus musculus with 4 samples.

Results

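Mouse 3D-retinas exposed to 4-hydroxytamoxifen (4-OHT) together with lutein were compared with vehicle-treated 3D-retinas, to see which genes still differed from vehicle when the carotenoid was present. The comparison rests on 2 arrays of the 4 in the study, chosen by their titles, with 1 array per group. The tissue was grown in suspension from induced pluripotent stem cells of mice carrying Nrl-GFP, a reporter in which green fluorescent protein is driven by the rod gene Nrl. Optic cups with bright fluorescence were picked on differentiation day 23 and treated, and RNA was taken on day 25. The vehicle group received ethanol. The lutein group received 5 µM 4-OHT and 200 nM lutein. The remaining arrays, shown here only beside the comparison, held the same dose of 4-OHT alone and that dose together with vitamin E at 400 µM. Each array measured RNA from 24 3D-retinas, all of the Nrl-GFP line and all picked for fluorescence, and lutein or vitamin E without 4-OHT was not analysed here. With 1 array per group no difference has a replicate check and no p-value is given. Each group took its own place on a shared slide, so place and group cannot be told apart.

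4-OHT is an active metabolite of tamoxifen, an estrogen receptor modulator that can injure the retina, and it is widely used to switch on inducible Cre enzymes. Lutein is a dietary carotenoid that accumulates in the primate macula and quenches reactive oxygen. Rods detect light with a visual pigment, which activates transducin; transducin releases the inhibition of a phosphodiesterase, cyclic GMP falls and the cyclic nucleotide-gated channel closes. The integrated stress response is a signalling route in which kinases phosphorylate the translation factor eIF2, general protein synthesis slows, and translation of the transcription factor ATF4 increases. ATF4 and its partners then switch on genes for amino acid supply, tRNA charging and feedback.

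Promoters are shown for a higher group, the stress and amino acid genes, and a lower group, the rod genes, because each has a recognised regulatory element. The ATF4 composite element core was searched as TGATGNAA on both strands in RefSeq promoters (build GRCm38.p6) running from 250 bases before to 50 bases after the start of a gene. It was present in 4.51% of the 27025 promoters. Among the stress and amino acid genes it was found in 6 of 19 promoters of integrated stress response genes, in 5 of 16 of amino acid synthesis and import genes, and in 5 of 13 of cytosolic aminoacyl-tRNA synthetase genes. The following stretches, read in the direction of the gene, have the match in capitals. They were taken only from genes past 2-fold with a match before the start, so the size of their differences was fixed by that choice. Pycr1, Got1, Slc1a4, Aars, Iars and Yars also had a match but were short of 2-fold and are not shown. Fgf21 and Vldlr had a match and were either short of 2-fold or not measured. Trib3 was past 2-fold, but its match did not lie wholly before the start. Gars and Tars, both past 2-fold with a match before the start, are not shown either.
Atf3: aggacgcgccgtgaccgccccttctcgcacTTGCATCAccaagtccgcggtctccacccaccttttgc
Nupr1: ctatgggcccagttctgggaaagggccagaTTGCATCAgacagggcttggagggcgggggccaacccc
Chac1: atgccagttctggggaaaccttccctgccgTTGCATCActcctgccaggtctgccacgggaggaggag
Asns: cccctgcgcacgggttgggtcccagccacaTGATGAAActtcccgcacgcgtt
Slc7a11: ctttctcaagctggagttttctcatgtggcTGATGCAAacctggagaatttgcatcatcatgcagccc
The Atf3 match begins 110 bases before the gene start (chr1:191183406-191183473, minus strand), the Nupr1 match 110 bases before (chr7:126625543-126625610, minus strand) and the Chac1 match 193 bases before (chr2:119351019-119351086, plus strand). The Asns match begins 23 bases before (chr6:7693210-7693262, minus strand) and the Slc7a11 match 66 bases before (chr3:50443642-50443709, minus strand), with another match on the opposite strand in the same stretch. The median log2 difference between lutein and vehicle was 2.87 for the 5 measured stress response genes with a match and 1.17 for the 13 without, whereas for amino acid genes it was 0.85 with (5 genes) and 1.49 without (11 genes). For tRNA synthetases it was 0.86 with (5 genes) and 0.10 without (8 genes). A match describes letters in this window only.

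For rod genes the CRX-type element TAATCC was searched on both strands. It occurred in 8.14% of all promoters, in 8 of 14 promoters of rod phototransduction genes, in 6 of 16 of outer segment genes and in 6 of 15 of photoreceptor transcription factor genes. Rod phototransduction genes with a match had a median log2 difference of -1.10 (8 genes) and those without -0.94 (6 genes). These 4 stretches, taken only from genes past 2-fold, show it in capitals. Cngb1, Sag, Gnb5 and Gucy2e also had a match but were short of 2-fold and are not shown. The same holds for the matching outer segment and photoreceptor transcription factor genes.
Gngt1: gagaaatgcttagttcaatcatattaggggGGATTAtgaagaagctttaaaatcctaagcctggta
Cnga1: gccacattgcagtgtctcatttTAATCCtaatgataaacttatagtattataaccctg
Guca1a: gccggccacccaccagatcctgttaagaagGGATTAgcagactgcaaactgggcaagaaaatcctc
Gucy2f: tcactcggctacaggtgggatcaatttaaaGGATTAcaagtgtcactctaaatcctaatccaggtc
The matches begin 44 bases before the start in Gngt1 (chr6:3993934-3993999, plus strand), 228 in Cnga1 (chr5:72642945-72643002, minus strand), 57 in Guca1a (chr17:47400628-47400693, minus strand) and 84 in Gucy2f (chrX:142196985-142197050, minus strand). The stretch of Gucy2f holds another match on the opposite strand. For the remaining groups, the AP-1 element TGANTCA was in 8.97% of all promoters, in 0 of 23 of immediate early genes and in 5 of 11 of growth factor genes. The median log2 difference of growth factor genes was 0.38 with a match (3 measured genes) and 1.57 without (6 genes). The sterol element core TCACNCCAC was in 1.44% of all promoters and in 1 of 20 of cholesterol genes (Hmgcs1). The metal response core TGCNCNC was in 53.6% of all promoters and in 8 of 8 of the metallothionein and zinc list. The core of the serum response element was in 1.75% of all promoters and in 2 of 23 of immediate early genes (Egr2 and Srf).

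Signals are given as log2 levels, where 0 is the 75th percentile of the gene spots of an array. Levels of different probes were not set against each other, except in the summed linear levels of the microglia, Muller glia and pigment lists. Those sums take in every member on the array, also probes not well above background. A gene counted as measured when the scanner software called its brightest probe well above background in vehicle, with lutein or in both. Among the 21351 such genes, 733 (3.43%) had a level with lutein that was 2-fold or more above vehicle and 318 (1.49%) were 2-fold or more below, so that 4.92% differed in either direction. The counts of every list below are to be read beside these shares, and a count of 0 in a short list is near them. Among 13676 genes with a gene symbol the counts were 461 and 204. The median log2 difference over all genes was -0.01. At 4-fold the counts were 161 and 47. For 1680 genes only 1 of both arrays was well above background. There the dim side took the lowest level that passed detection on that array, unless its own was higher. This makes the result a lower limit under the main processing only, marked by the words "at least" before the fold. Some of these sizes were smaller in alternative settings. The filter also tends to place a gene detected with lutein only above 0, and a gene detected in vehicle only below 0. Spot-to-spot noise gave a log2 difference an SD of 0.17, from probes printed several times; variation between cultures was not measured. Detected gene spots made up 51.3% to 54.5% of each array.

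**Figure D1:**
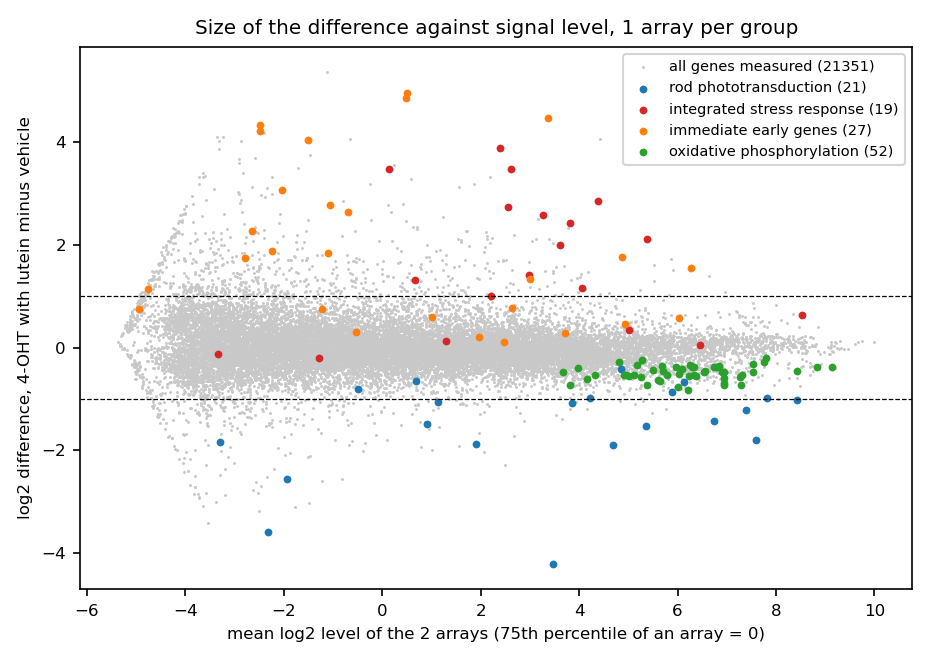
Log2 difference between the array of 4-OHT with lutein and the vehicle array (vertical axis) against the mean log2 level of both arrays (horizontal axis); each point is 1 of 21351 genes, 4 gene lists are coloured, and dashed lines mark 2-fold. The 21 rod phototransduction genes (1 detected in vehicle only) and the 52 oxidative phosphorylation genes all lie below 0. The 27 immediate early genes all lie above 0, 4 of them detected with lutein only, which favours that side. The slanted edges at low level are bounds for genes that only 1 array measured.

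The retinal label of the tissue was checked against marker lists. All 21 rod phototransduction genes were well above background in vehicle, as were 21 of 21 outer segment genes, 15 of 16 photoreceptor transcription factors, 11 of 13 cone genes, 9 of 10 each of Muller glia and bipolar cell markers, 9 of 12 amacrine and horizontal cell markers and 10 of 11 ganglion cell markers. Markers outside the neural retina were fewer. In vehicle 5 of 10 pigment epithelium and melanin genes, 4 of 8 microglia markers, 3 of 9 lens crystallins, 3 of 8 vascular and mesenchymal markers and 2 of 6 pluripotent or forebrain markers were well above background. Over all gene spots of the vehicle array the share well above background was 51.4%. Rpe65, the retinoid isomerase of pigment epithelium, the microglial genes Aif1 and P2ry12 and the pluripotency gene Pou5f1 were not well above background on either array of the comparison. Other members of the same lists were, on both arrays, among them Csf1r and Itgam of microglia and the pigment genes Dct, Tyr, Pmel and Mitf. These counts do not show that such cells were absent.

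Rod phototransduction genes were lower with 4-OHT and lutein than in vehicle. All 21 members had a log2 difference below 0, and 14 were at least 2-fold lower. The median was -1.21, against -0.01 over all genes. These are bulk samples, in which fewer rods and less RNA per rod cannot be told apart. Gnat1, the alpha subunit of rod transducin, had a log2 level of 5.58 in vehicle, 0.23 with 4-OHT, 2.64 with 4-OHT and vitamin E and 1.37 with 4-OHT and lutein. The vehicle array was the highest and 4-OHT alone the lowest. With lutein Gnat1 was 18.6-fold lower than vehicle, the largest difference among symbol-named genes lower on this array and measured on both arrays. Its probe lies at chr9:107577023-107577082 (mm9, minus strand). The exon or UTR it falls in was not analysed here.

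Other members of the light-activated chain differed less. Pde6g, the inhibitory subunit of the rod phosphodiesterase, had a log2 level of 8.50 in vehicle, 6.19 with 4-OHT, 7.51 with vitamin E added and 6.70 with lutein added, and was 3.48-fold lower with lutein. Of the catalytic subunit genes of that enzyme, Pde6a had a log2 difference of -1.07 and Pde6b of -0.42, the latter short of 2-fold. Cnga1, the alpha subunit of the cyclic nucleotide-gated channel, had log2 levels of 6.12, 3.85, 5.32 and 4.59, and was 2.89-fold lower with lutein. Its partner Cngb1 was 1.98-fold lower. Slc24a1, the exchanger that removes calcium from the outer segment, had log2 levels of -0.53 in vehicle, -4.00 with 4-OHT, -2.85 with vitamin E and -4.11 with lutein. The level with lutein was close to -4.13, the lowest level that passed detection on that array. It was within the spot SD of the level with 4-OHT alone, but that SD comes from probes mostly detected and may be larger for signals this dim. The log2 difference from vehicle was -3.58, and ran from -3.66 to -2.18 over the alternative settings. The transducin gamma subunit Gngt1 was 2.31-fold lower and the beta subunit Gnb1 1.81-fold lower. Over this group of 10 genes 7 were at least 2-fold lower, with a median log2 difference of -1.37.

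Genes that shut off the light response and restore cyclic GMP followed with 7 of 11 at least 2-fold lower and a median log2 difference of -1.06. Gucy2f, one of the photoreceptor guanylate cyclases, had log2 levels of -0.65 in vehicle, -3.53 with 4-OHT, -2.85 with vitamin E and -3.20 with lutein, a 5.87-fold lower level with lutein than in vehicle. Its relative Gucy2e was 1.75-fold lower. The cyclase-activating proteins were lower as well: Guca1b was 3.69-fold lower by its brightest probe, with a log2 difference of -2.37 by another, and Guca1a, which was not well above background with lutein, was at least 3.56-fold lower, a size that was -0.72 on the log2 scale with normexp background correction. Rcvrn, recoverin, a calcium sensor, was 2.69-fold lower. Rgs9bp, the membrane anchor of the transducin-inactivating complex, was 2.78-fold lower. Rgs9, the enzyme of that complex, was 2.09-fold lower by its brightest probe, while its other probes gave log2 differences of -0.29 and 0.54. Rod arrestin (Sag) and the visual pigment kinase (Grk1) were 1.60-fold and 1.56-fold lower, short of 2-fold.

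**Figure D2:**
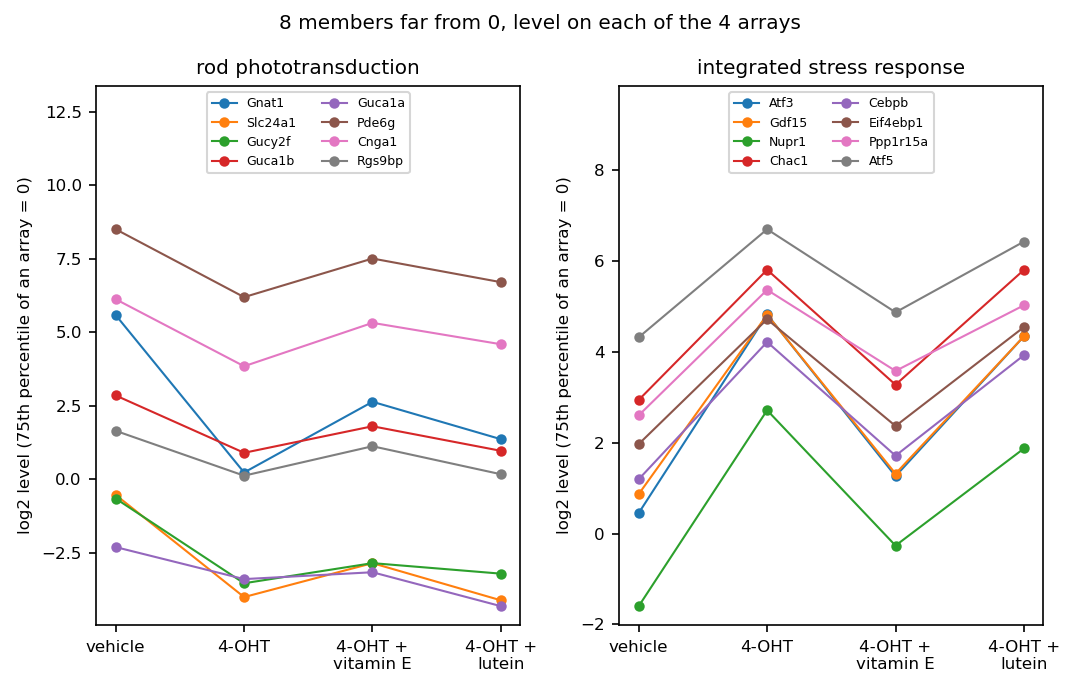
Log2 level (75th percentile of an array = 0) on each of the 4 arrays for 8 members far from 0 of the rod phototransduction list (left) and of the integrated stress response list (right); lines join the values of 1 gene and the order of treatments carries no meaning. The lutein array lies below vehicle for each rod gene drawn and above vehicle for each stress gene drawn, as the choice of these genes by that difference fixes.

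Genes that build the photoreceptor were lower by smaller amounts. Of 21 outer segment and support genes 19 lay below 0 and 1 was at least 2-fold lower, with a median log2 difference of -0.51. That gene was Fscn2, an actin-bundling protein of photoreceptors, at -1.51, and -0.96 with normexp background correction. Prph2, the disc rim protein peripherin, had a log2 difference of -0.75, Rp1, a microtubule protein of the photoreceptor axoneme, -0.81, and Abca4, the retinoid flippase, -0.70. Among 15 photoreceptor transcription factors 12 lay below 0 and the median was -0.41. Esrrb, an orphan nuclear receptor of rods, was the single member past 2-fold, with log2 levels of 3.63 in vehicle, 0.43 with 4-OHT, 2.26 with vitamin E and 1.35 with lutein, which made it 4.89-fold lower with lutein than in vehicle. Nrl, the rod-specifying factor behind the reporter, had log2 levels of 8.99, 8.24, 8.83 and 8.53 in the same order, and a log2 difference of -0.46. Nr2e3, which represses cone genes in rods, stood at -0.41, and Crx, a photoreceptor homeobox factor, at -0.59. Otx2, another homeobox factor, was above 0 at 0.53.

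Cone genes did not share this direction. The median log2 difference of the 12 measured was 0.43, or 0.20 when detection on both arrays was required and 0.24 with normexp background correction, with 8 above 0, 3 past 2-fold upward and 1 past it downward. Kcne2, a potassium channel subunit, had log2 levels of -2.13 in vehicle, 1.56 with 4-OHT, 0.09 with vitamin E and -0.33 with lutein, and was 3.49-fold higher with lutein than in vehicle. Ccdc136 was 2.56-fold higher. Arr3, cone arrestin, was 2.73-fold higher on its brightest probe, but another of its probes gave a log2 difference of 0.26. Gnat2, the cone transducin, was 2.17-fold lower, with log2 levels of 1.22, -0.07, 1.12 and 0.11. Opn1sw, the short-wave opsin, was not well above background in vehicle and was at least 1.59-fold higher with lutein, and Opn1mw was not measured. At the photoreceptor synapse 10 of 14 genes lay below 0 and 2 were at least 2-fold lower (median -0.24). These were Cabp4, a calcium-binding regulator of the synaptic calcium channel, 3.24-fold lower, and Cplx4, a complexin of ribbon synapses, 2.37-fold lower, or just short of 2-fold with normexp background correction.

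**Figure D3:**
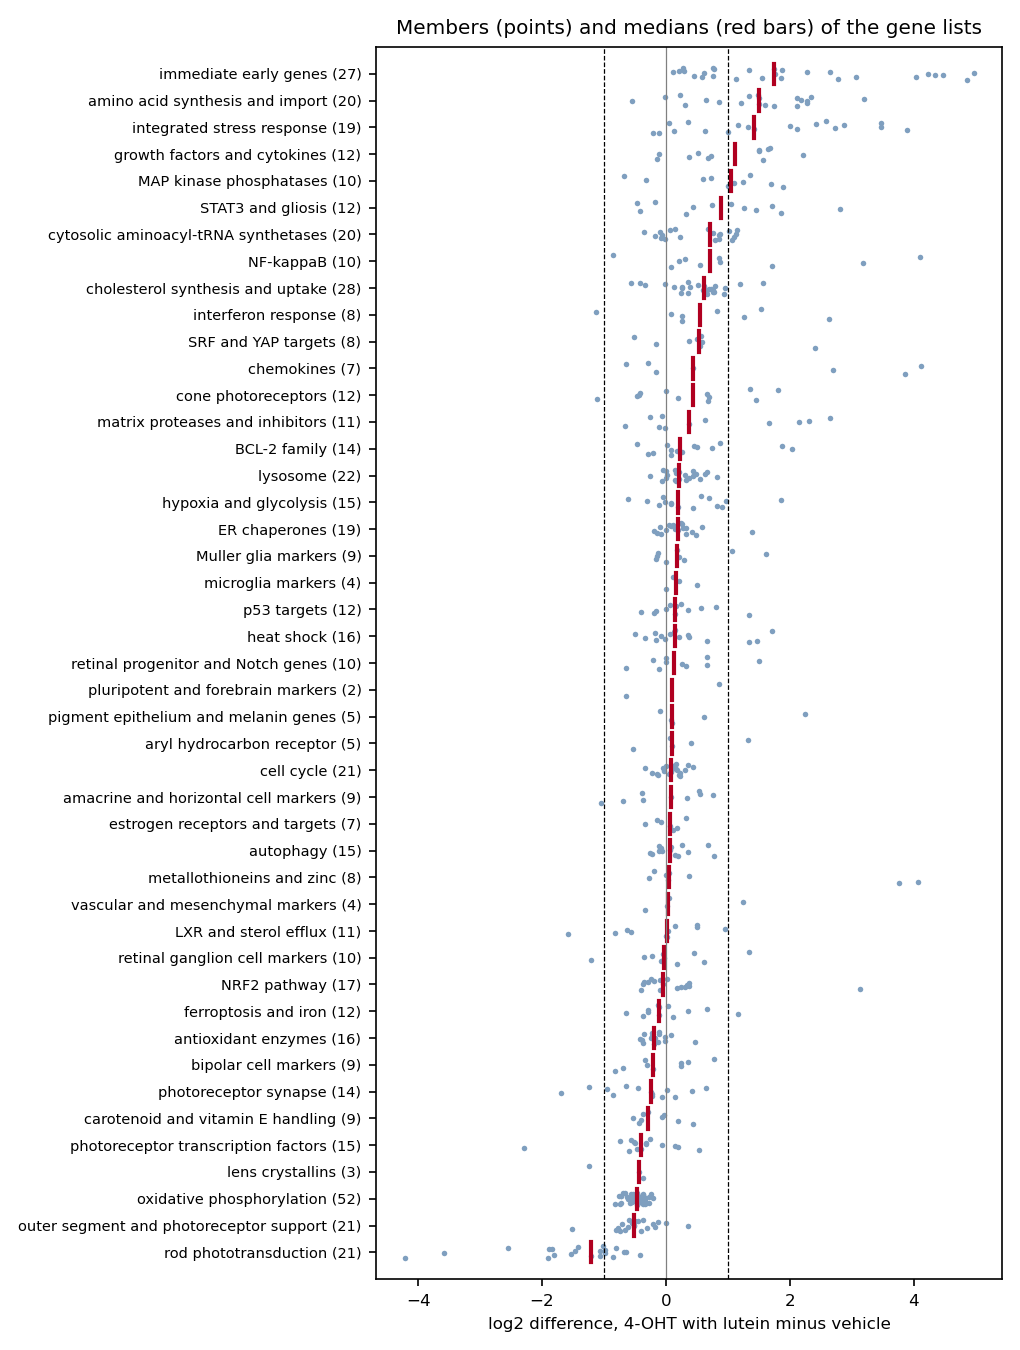
Log2 difference between 4-OHT with lutein and vehicle (horizontal axis) for each measured member (points) of the 45 gene lists, with the number measured in parentheses, the median of each list as a red bar and dashed lines at 2-fold. Immediate early, amino acid and stress response lists have the highest medians (1.75, 1.5 and 1.42) and rod phototransduction the lowest (-1.21).

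Integrated stress response genes were higher with 4-OHT and lutein than in vehicle. Their median log2 difference was 1.42, and 13 of 19 passed 2-fold upward and 0 downward, against 3.43% and 1.49% of all genes. By role, 1 of 4 kinases, 6 of 7 transcription factors and 6 of 8 effectors and feedback genes passed. Of the 4 eIF2 kinases, Eif2ak3 (PERK, the kinase of the endoplasmic reticulum) was at the limit with a log2 difference of 1.00, which was 0.96 on spike-in scaling, and Eif2ak1, Eif2ak2 and Eif2ak4 stood at -0.20, -0.12 and 0.14. Atf4 itself, whose protein is controlled mainly by translation, had log2 levels of 8.22 in vehicle, 8.82 with 4-OHT, 8.28 with vitamin E and 8.85 with lutein, 1.55-fold higher with lutein than in vehicle.

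The other 6 stress transcription factors were all at least 2-fold higher. Atf3, a factor of the same family, had log2 levels of 0.45 in vehicle, 4.83 with 4-OHT, 1.26 with vitamin E and 4.35 with lutein, and was 14.9-fold higher with lutein (probe at chr1:192994547-192994606, mm9, minus strand). Nupr1, a stress-induced chromatin protein, had log2 levels of -1.60, 2.72, -0.27 and 1.87 and was 11.1-fold higher. In both genes vehicle was the lowest array and vitamin E the next. Cebpb, Atf5, Ddit3 (CHOP) and Cebpg were 6.65-fold, 4.31-fold, 2.68-fold and 2.51-fold higher. Effector and feedback genes differed by similar amounts. Gdf15, a secreted stress cytokine, had log2 levels of 0.87, 4.82, 1.32 and 4.35 and was 11.1-fold higher with lutein. Chac1, which degrades glutathione, stood at 2.94 in vehicle, 5.81 with 4-OHT, 3.28 with vitamin E and 5.81 with lutein, so that the levels with 4-OHT alone and with lutein were equal to 2 decimals, and was 7.29-fold higher. Eif4ebp1, a repressor of cap-dependent translation, was 5.97-fold higher, and Ppp1r15a (GADD34), which recruits the phosphatase that reverses eIF2 phosphorylation, 5.37-fold. Trib3 was 3.99-fold and Sesn2 2.24-fold higher, whereas Ddit4, an inhibitor of mTOR signalling, had a log2 difference of 0.05.

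Genes of amino acid supply were higher as well, with 14 of 20 at least 2-fold higher, 0 lower and a median log2 difference of 1.5. On the synthesis side 7 of 11 passed 2-fold. Mthfd2, a mitochondrial folate enzyme, was 4.83-fold higher, Cth, which makes cysteine, 4.84-fold, and the serine synthesis enzymes Phgdh and Psat1 4.33-fold and 3.01-fold, with other probes of both at similar differences. The last enzyme of serine synthesis, Psph, had a log2 difference of 0.31. Asns, asparagine synthetase, had log2 levels of 5.01 in vehicle, 6.82 with 4-OHT, 5.14 with vitamin E and 6.74 with lutein, and was 3.33-fold higher. Got1, an aspartate aminotransferase, was below 0 at -0.55. On the transport side 7 of 9 passed 2-fold. Slc7a3, a transporter of arginine and lysine, had log2 levels of 0.27, 3.81, 0.86 and 3.46 and was 9.15-fold higher. Slc7a11, the cystine importer, was not well above background in vehicle or with vitamin E and was at least 4.55-fold higher with lutein than in vehicle. Slc7a5 and Slc3a2, the pair that forms the large neutral amino acid transporter, were 4.31-fold and 2.84-fold higher, with a log2 difference of 0.85 by another probe of Slc7a5.

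Cytosolic aminoacyl-tRNA synthetases, which load tRNAs with amino acids, split into a higher group and a group near 0. Of 20, 5 were at least 2-fold higher (Tars, Mars1, Gars, Cars and Sars, between 2.03-fold and 2.20-fold), 14 lay above 0 and the median log2 difference was 0.71. Sars was just short of 2-fold on spike-in scaling. Aars, Eprs, Iars, Lars, Nars and Yars followed with log2 differences from 0.68 to 0.87. Dars, Farsa, Hars, Kars, Qars, Rars and Vars lay between -0.35 and 0.06.

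Chaperones of the endoplasmic reticulum stayed closer to vehicle. Of 19, 1 was at least 2-fold higher, Herpud1, a component of the degradation machinery of that organelle, at 2.61-fold, and the median log2 difference was 0.19. Hspa5 (BiP) stood at 0.48. Of 16 heat shock genes 3 were at least 2-fold higher, namely the co-chaperone Bag3 (3.27-fold), Hspb1 (2.78-fold) and Hspa1a (2.53-fold), with a list median of 0.14. Hspa1a had log2 levels of 0.40 in vehicle, 3.01 with 4-OHT, 0.13 with vitamin E and 1.74 with lutein, and the lutein array was 1.27 below 4-OHT alone.

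Immediate early genes, which are transcribed within minutes of a stimulus without new protein synthesis, were the list with the highest median. Of 27 measured, 17 were at least 2-fold higher, 0 lower and all 27 above 0. Of the 27, 4 were well above background with lutein only, so the filter itself favoured their place above 0. The median log2 difference was 1.75, or 1.31 with normexp background correction. Npas4, a transcription factor of neuronal activity, had log2 levels of -1.97 in vehicle, 4.02 with 4-OHT, 1.24 with vitamin E and 2.99 with lutein, and was 31.2-fold higher with lutein (probe at chr19:4984356-4984415, mm9, minus strand). Fos, an AP-1 subunit measured by 10 spots, had log2 levels of -1.94, 3.09, 1.54 and 2.92 and was 28.9-fold higher. Egr1, a zinc finger factor, stood at 1.12, 5.61, 4.45 and 5.60 and was 22.3-fold higher. For these 3 genes the vitamin E array was also well above vehicle, with log2 differences of 3.21, 3.47 and 3.33.

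Maff, Junb, Fosb and Ier2 had smaller differences with vitamin E than Npas4, Fos and Egr1 did. In each of these genes, Npas4, Fos and Egr1 included, the vitamin E array stood closer to vehicle than the lutein array did. Maff, a small Maf protein, was 16.4-fold higher with lutein and had a log2 difference of 0.80 with vitamin E. Junb was 8.41-fold, Fosb 6.86-fold and Ier2 6.24-fold higher with lutein, with log2 differences of 0.91, 0.73 and 1.29 with vitamin E. Egr2 and Egr4 went undetected in vehicle, and were at least 20.3-fold and 18.8-fold higher with lutein, and at least 4.24-fold and 14.8-fold with vitamin E. Over the settings that gave a value, the log2 difference with lutein ran from 2.81 to 5.10 for Egr2 and from 2.62 to 4.87 for Egr4. Jun, whose vehicle level was already 5.49, was 2.93-fold higher. Arc, a synaptic protein, was 4.82-fold and Klf4 3.67-fold higher. Myc was 3.36-fold higher, and 0.95 on the log2 scale with normexp background correction. Ier3, Ier5, Srf and Btg2 stood between 0.11 and 0.30.

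The phosphatases that dampen MAP kinase signalling had a median log2 difference of 1.05, with 5 of 10 past 2-fold upward and 0 downward. Dusp1 was 3.71-fold, Dusp4 3.23-fold, Dusp16 2.57-fold, Dusp6 2.37-fold and Dusp5 2.14-fold higher (0.89 on the log2 scale with normexp background correction), and Dusp14 was below 0 at -0.67. Among 12 growth factors and cytokines 6 passed 2-fold upward and 0 downward (median 1.11, or 0.72 with normexp background correction). Of the 12, 4 were well above background with lutein only, so the filter itself favoured their place above 0. Vegfa, the vascular growth factor, had log2 levels of 2.15 in vehicle, 4.39 with 4-OHT, 2.98 with vitamin E and 3.83 with lutein, and was 3.20-fold higher. Bdnf, a neurotrophin, was 2.95-fold, Edn2, an endothelin that injured photoreceptors make, 2.84-fold and Vgf, a neuropeptide precursor, 2.82-fold higher. Areg and Inhba, both undetected in vehicle, were at least 4.62-fold and 3.12-fold higher. Edn2 and Inhba were short of 2-fold with normexp background correction, at 0.79 and 0.97 on the log2 scale.

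Inflammatory genes were higher for some members and lower for others. Among 7 measured chemokines 3 were at least 2-fold higher and 0 lower. These were Cxcl10, Ccl2 and Cxcl1, none of them well above background in vehicle or with vitamin E, so that they entered the list through the lutein array alone, while 3 of the 7 lay below 0. With lutein Cxcl10 was at least 17.3-fold, Ccl2 at least 14.5-fold and Cxcl1 at least 6.49-fold higher than in vehicle. Over the settings that gave a value, the log2 difference of Cxcl10 ran from 2.53 to 6.13. The list median of 0.44 became -0.29 when detection on both arrays was required, which leaves these out. Of 10 NF-kappaB genes 3 were at least 2-fold higher and the median was 0.70, or 0.44 with normexp background correction and 0.43 with no filter. Relb, a subunit, had log2 levels of -1.84 in vehicle, 2.08 with 4-OHT, -1.59 with vitamin E and 1.34 with lutein, and was 9.06-fold higher, while the cofactor Bcl3 was at least 17.2-fold and Nfkb2 3.28-fold higher. Tnfaip3, a feedback inhibitor, was below 0 at -0.86, and Tnf and Il1b were not measured. Microglia markers that were measured had log2 differences from 0.01 (Csf1r) to 0.50 (Itgam), 0 of 4 past 2-fold, with summed linear levels of 12.6 in vehicle, 30.8 with 4-OHT, 12.6 with vitamin E and 16.8 with lutein, most of it from Itgam. Aif1, Cx3cr1, C1qa and P2ry12 were not measured. The part of these cells in the inflammatory genes was not tested.

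Genes of cytokine signalling through STAT3 and of gliosis had 6 of 12 at least 2-fold higher, 0 lower and a median log2 difference of 0.89. Socs3, the feedback inhibitor, had log2 levels of -0.97 in vehicle, 2.83 with 4-OHT, -1.63 with vitamin E and 1.83 with lutein, and was 6.98-fold higher. Stat3 was 2.75-fold, Cebpd 3.29-fold and Vim, an intermediate filament of glia, 2.06-fold higher. The receptor Osmr was at least 3.63-fold higher, or 0.97 on the log2 scale with normexp background correction, and the glial filament Gfap, undetected in vehicle, was at least 1.68-fold higher. Summed linear levels of the Muller glia list were 78.6 in vehicle, 169 with 4-OHT, 91.7 with vitamin E and 132 with lutein, where the gain with lutein over vehicle is no larger than that of Clu (clusterin), one of its members, and the part of glia in these genes was not tested. Among 8 interferon response genes 3 passed 2-fold upward and 1 downward (median 0.54). Irf1 was 6.22-fold, B2m, the light chain of MHC class I, 2.89-fold and Irf9 2.40-fold higher. Oasl2 was 2.19-fold lower, a log2 difference that was -0.43 with normexp background correction.

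Metallothionein genes were among the highest on the lutein array. Mt2, a zinc-binding and copper-binding protein, had log2 levels of 2.40 in vehicle, 7.29 with 4-OHT, 2.92 with vitamin E and 6.46 with lutein, and was 16.7-fold higher. Mt1 had log2 levels of 3.51, 7.98, 4.31 and 7.27 and was 13.6-fold higher. The brain form Mt3, the metal sensor Mtf1 and the zinc transporters Slc30a1, Slc30a4, Slc30a5 and Slc39a10 lay between -0.28 and 0.38, so 2 of 8 members passed 2-fold and the list median was 0.04. Hmox1, the inducible heme oxygenase, had log2 levels of -0.01 in vehicle, 3.45 with 4-OHT, 0.73 with vitamin E and 3.12 with lutein, and was 8.76-fold higher, with a log2 difference of 2.27 by another probe. Of 17 measured genes in the list of targets and regulators of the antioxidant factor NRF2, it alone passed 2-fold. The list median was -0.05. Slc7a11, another NRF2 target and also past 2-fold as a bound, was counted with amino acid import instead. The glutathione synthesis genes Gclc and Gclm stood at 0.19 and 0.25, Txnrd1 at 0.31 and Srxn1 at 0.38, and Nqo1 was not measured.

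Antioxidant enzymes had 0 of 16 past 2-fold in either direction, which is near the share of 4.92% over all genes. Of the 16, 14 lay below 0, with a median of -0.19. Gpx4, the lipid peroxide reductase that guards against ferroptosis, stood at -0.38, Sod2 at -0.36 and Cat, catalase, at 0.47, or -0.20 by another probe. Of 12 genes of lipid peroxidation and iron, 1 was at least 2-fold higher, Ptgs2 (COX-2), as a bound of at least 2.24-fold that was 0.60 on the log2 scale with normexp background correction. Genes that take up, bind or cleave carotenoids and vitamin E were near vehicle, with 9 of 14 measured, 0 past 2-fold and a median of -0.29, or -0.11 with normexp background correction and -0.05 with no filter. Scarb1, the scavenger receptor that imports lutein, had log2 levels of 4.46 in vehicle, 3.60 with 4-OHT, 4.43 with vitamin E and 4.02 with lutein. Stard3, a lutein-binding protein, stood at 0.19, Gstp1, which binds zeaxanthin, at -0.41 and Bco2, the mitochondrial carotenoid oxygenase, at 0.44. Bco1, Cd36, Ttpa, Npc1l1 and Lrat were not measured.

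Genes of cholesterol synthesis and uptake were slightly higher as a group. Of 28, 24 lay above 0, 2 were at least 2-fold higher and the median log2 difference was 0.61. Insig1, the sterol-sensing retention protein, had log2 levels of 0.52 in vehicle, 1.69 with 4-OHT, 1.41 with vitamin E and 1.71 with lutein, and was 2.28-fold higher. The 20 synthesis enzymes had a median of 0.64 with 0 past 2-fold, led by Nsdhl at 0.95 and Hmgcs1 at 0.94. In contrast to the stress lists, the median with vitamin E, 0.51, was nearer to the value with lutein than that with 4-OHT alone, 0.36. Among 11 genes of sterol efflux, Abca1, the cholesterol exporter, was 2.99-fold lower and Abcg1 was below 0 at -0.82, while the list median was 0.02. Of 22 lysosomal genes 19 lay above 0 and 0 passed 2-fold (median 0.21), with Hexa, a ganglioside hydrolase, at 0.83. Autophagy genes had a median of 0.06 and 0 of 15 past 2-fold, near the share of 4.92% over all genes.

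Genes of mitochondrial oxidative phosphorylation were lower by small and even amounts. All 52 measured lay below 0, 0 passed 2-fold and the median log2 difference was -0.47, between -0.83 (Ndufa4) and -0.20 (Uqcrq). Complex I genes had a median of -0.45 (22 genes), and genes of the other complexes and cytochrome c -0.53 (30 genes). Ndufa4 was counted with complex I by its name, although its protein is now placed in complex IV. Ndufa4 had log2 levels of 6.63 in vehicle, 5.31 with 4-OHT, 6.08 with vitamin E and 5.80 with lutein. Rods are rich in mitochondria, and the rod list was lower on the same array; their part in these values was not tested. Of 15 hypoxia and glycolysis genes 1 was at least 2-fold higher, the oxygen sensor Egln3 at 3.63-fold, and the median was 0.20. Pdk1 and Hk2 stood at 0.96 and 0.91, and Adm, adrenomedullin, was below 0 at -0.62.

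Cell death and damage genes differed in a few members. Of 10 pro-apoptotic BCL-2 family genes 2 were at least 2-fold higher. Bbc3 (PUMA) had log2 levels of 2.45 in vehicle, 4.75 with 4-OHT, 2.75 with vitamin E and 4.49 with lutein and was 4.10-fold higher, and Hrk, a neuronal member, had log2 levels of 1.14, 3.16, 1.25 and 3.01 and was 3.65-fold higher. The 4 anti-apoptotic members had a median of -0.06. Of 12 measured genes in the list of p53 targets 1 passed 2-fold, the cell cycle inhibitor Cdkn1a at 2.53-fold. It was 0.99 on the log2 scale when its probes were averaged, and Mdm2 stood at 0.15. Bbc3, Gdf15 and Sesn2, which are also known p53 targets and were past 2-fold, were counted in other lists. No cell cycle gene of 21 passed 2-fold (median 0.08). Among estrogen receptors and targets, the pathway on which tamoxifen acts, 0 of 7 passed 2-fold, near the share of 4.92% over all genes. Esr1 and Pgr were not measured, and Esr2 had log2 levels of 1.44 in vehicle, 2.75 with 4-OHT, 1.10 with vitamin E and 1.56 with lutein. Of 5 genes of the aryl hydrocarbon receptor, Ahrr, its repressor, was 2.51-fold higher, or 0.93 on the log2 scale as the mean of probes. Of 11 matrix proteases and inhibitors 4 were at least 2-fold higher. Timp1 was at least 6.28-fold, Plaur at least 4.44-fold, Adamts1 4.97-fold and Plat, the tissue plasminogen activator, 3.18-fold higher. In the list of SRF and YAP targets Ccn1 was at least 5.31-fold higher, 1 of 8. That list leaves out Fos, Egr1, Egr2 and Junb, also SRF targets, which were counted with the immediate early genes.

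Marker lists of other retinal cells had medians between -0.21 and 0.18, and those of bipolar, amacrine and ganglion cells turned sign under 1 alternative setting each. In the Muller glia list 2 of 9 were at least 2-fold higher. Clu, clusterin, an extracellular chaperone, had log2 levels of 4.71 in vehicle, 6.95 with 4-OHT, 5.02 with vitamin E and 6.33 with lutein and was 3.06-fold higher, and the transcription factor Sox9 was 2.09-fold higher, or 0.81 on the log2 scale with normexp background correction. Glul, glutamine synthetase, and Rlbp1, a retinoid-binding protein, which define these cells, stood at 0.00 and 0.30. No bipolar marker of 9 passed 2-fold. Gad1, the enzyme that makes GABA in amacrine cells, was 2.06-fold lower. Among ganglion cell markers Sncg was 2.31-fold lower and the early factor Atoh7 2.52-fold higher, and among progenitor genes Fgf15 was 2.84-fold higher. Dct, a melanin enzyme, had log2 levels of 0.99 in vehicle, 3.41 with 4-OHT, 2.92 with vitamin E and 3.24 with lutein and was 4.76-fold higher, while Tyr, Pmel and Mitf stood between -0.09 and 0.10. Summed linear levels of the pigment list were 3.28 in vehicle, 11.9 with 4-OHT, 9.06 with vitamin E and 10.9 with lutein, a sum in which Dct itself is the main part on the treated arrays, and the part of pigment cells in the Dct value was not tested. Rpe65, Best1, Mlana and Rgr were not measured. Crybb3 was 2.36-fold lower among lens crystallins, and Cldn5 of endothelium at least 2.36-fold higher. With normexp background correction Fgf15 (0.96), Sncg (-0.96), Crybb3 (-0.97) and Cldn5 (0.77) were short of 2-fold on the log2 scale.

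Genes outside these lists were named by size. The 10 highest symbol-named genes measured on both arrays were Npas4, Fos, Egr1, Mt2, Maff, Atf3, Mt1, Csrnp1, Dclk3 and Gdf15, between 31.2-fold and 11.1-fold. Csrnp1, a nuclear factor first described as induced by axin, had log2 levels of -1.54 in vehicle, 2.67 with 4-OHT, -0.78 with vitamin E and 2.02 with lutein. Dclk3, a doublecortin-like kinase, had log2 levels of -3.47, 0.25, -1.56 and 0.03. The 10 lowest were Gnat1, Slc24a1, Cltrn, Gsg1, Angptl4, Gucy2f, Ankrd2, Esrrb, Ushbp1 and Susd3, between 18.6-fold and 4.27-fold lower. Cltrn, collectrin, had log2 levels of 0.04 in vehicle, -3.47 with 4-OHT, -1.65 with vitamin E and -2.99 with lutein. Angptl4, an inhibitor of lipoprotein lipase, had log2 levels of 0.47, -1.51, -2.11 and -2.09, lower than vehicle on each treated array and lowest with vitamin E. The largest bounds were Egr2, Egr4, Tcstv3, Cxcl10 and Bcl3 in the higher direction, from 20.3-fold to 17.2-fold, and Vwa3a, Pcsk6, Ackr4, Lgals2 and Nme8 in the lower direction, with log2 differences from -3.41 to -2.90, each on 1 spot.

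**Figure D4:**
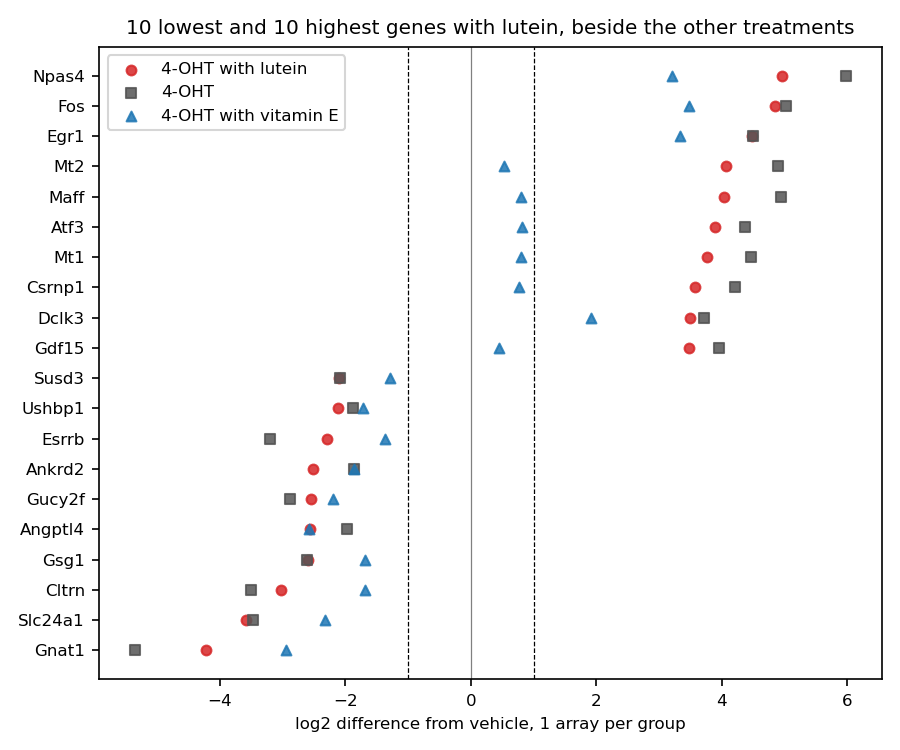
Log2 difference from vehicle (horizontal axis, dashed lines at 2-fold) for the 10 highest and 10 lowest symbol-named genes of the lutein comparison, with the values of the other treatments against the same vehicle array. The genes were chosen on the lutein values; for Mt2, Maff, Atf3, Mt1, Csrnp1 and Gdf15 the vitamin E array lies below 2-fold, whereas for Npas4, Fos and Egr1 it lies above 3 on the log2 scale.

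The treatments against vehicle all used the same vehicle array, so their values are given side by side only. The rod phototransduction median was -1.52 with 4-OHT, -1.21 with lutein added and -0.73 with vitamin E added. For the integrated stress response the medians were 1.85, 1.42 and 0.18 in that order, for amino acid supply 1.67, 1.5 and 0.23, and for tRNA synthetases 0.70, 0.71 and 0.05. Immediate early genes stood at 2.12, 1.75 and 0.59, and oxidative phosphorylation at -0.80, -0.47 and -0.24. In each of these lists except the synthetases the lutein value lay between the others.

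**Figure D5:**
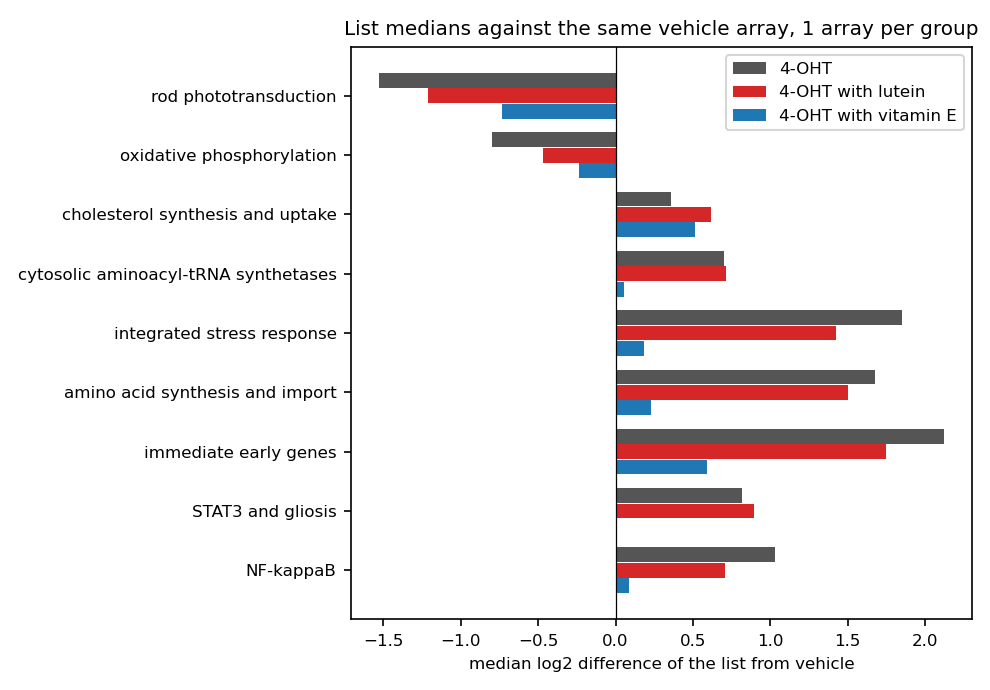
Median log2 difference from vehicle (horizontal axis) of 9 gene lists for 4-OHT alone, 4-OHT with lutein and 4-OHT with vitamin E, all against the same vehicle array and with 1 array per group. Rod phototransduction has bars of -1.52, -1.21 and -0.73 in that order, and the integrated stress response 1.85, 1.42 and 0.18.

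Genes that stood apart on 1 array, at least 2-fold from each of the other 3 in the same direction, were counted over the 22765 genes measured on any array. A higher gene had to be detected on that array only, but a lower gene on each of the other 3. The higher and lower counts are therefore not alike. The lutein array had 168 higher and 1 lower, the vehicle array 157 and 64, 4-OHT alone 699 and 18, and vitamin E 72 and 72. Of the 168 genes highest with lutein 59 had a gene symbol. Among genes well above background on all 4 arrays the counts were 24 higher and 0 lower with lutein, 64 and 54 in vehicle, 413 and 11 with 4-OHT alone, and 10 and 46 with vitamin E. Slc16a4, a member of the monocarboxylate transporter family, had the widest gap of the symbol-named genes and was named after its values were seen; it was well above background with lutein only, at least 10.2-fold above vehicle, on 1 spot. Paqr6, a membrane progestin receptor likewise named after its values were seen, was well above background on both arrays of the comparison and 7.67-fold higher with lutein than in vehicle, but another of its probes gave a log2 difference of 0.12.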

How the data were processed

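Total RNA of each sample was labelled with Cy3 and hybridised to an Agilent mouse array, per the labels' protocols. The submitters' processing notes name Agilent Feature Extraction 10.7.3.1. The intensity deposited for each spot is background-subtracted and detrended, per the file headers, with no normalization between arrays, and the yes or no detection calls come from the same software. The lutein file holds 3 significant digits and 57 altered gene names, so names came from the vehicle file. Set against the scanner values, the value table that the authors deposited is the linear signal over 1 divisor per array, neither logged nor centred by gene; how the divisor was chosen stays unknown. The column medians of that table were 0.0794 (vehicle), 0.0949 (4-OHT), 0.0736 (vitamin E) and 0.0847 (lutein).

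Log2 intensity minus the 75th percentile of gene spots of each array was averaged over the spots of a probe, without control and outlier spots. The probe with the highest mean over 4 arrays stood for a gene. RefSeq (GRCm38.p6, names only) listed the accession of 28331 among 55681 probes and replaced 1403 names. Where 2 or more probes were detected (5078 genes), 4 genes had probes 2-fold apart from vehicle in opposite directions. Among the 5078 genes, 239 reached the 2-fold limit on some probe, but the full set of probes reached it for only 68. A count from the brightest probe is therefore often not shared by the other probes of a gene. Of 693 different listed symbols in 45 lists 691 were on the array and 610 measured. The members and lists were chosen with earlier results of these data known. Named genes are the 10 highest and 10 lowest with a symbol and measured on both arrays, the 5 largest bounds each way, and up to 6 members of each list farthest from 0 plus members whose role is described; some genes are counted in their lists but not reported here by name.

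No test is possible with 1 array per group; precision is limited by that number. Alternatives were median, quantile and spike-in scaling, normexp background with offset 50 (limma 3.58.1, R 4.3.3), other detection rules, the mean of probes, the authors' table, and limits of 1.5-fold and 4-fold. Other steps ran in Python 3.11.15 (pandas 2.3.3, NumPy 2.4.6, figures with matplotlib 3.10.9) and were tested on simulated data.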

Additional observations from a re-analysis of the deposited data

Results flagged for a closer look

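External RNA control probes were used in no comparison. The probe ERCC-00113, printed on 28 spots, had a median signal of 27.2 on the lutein array against 16.9 on the vehicle array, 55.6 with 4-OHT alone and 13.3 with vitamin E. It was well above background on 6 of 28 spots with lutein and on 2 in vehicle. The probe ERCC-00079 had a median signal of 16.2 with lutein against 8.98 in vehicle, 8.15 with 4-OHT and 10.3 with vitamin E, and was well above background on 3 of 28 spots with lutein and on 1 in vehicle. Both were listed, of 96 such probes, because the median signal with lutein was at least 1.5 times that of vehicle and at least 3 spots were well above background with lutein; most of the other probes also had a higher median signal with lutein than in vehicle. The cause was not tested.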

How the results depend on the processing

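No paired analysis was possible because a group held a single array. Against 733 genes higher and 318 lower, normexp background correction gave 351 and 138, detection on both arrays 473 and 204, no filter 2106 and 1166, a limit of 1.5-fold 1963 and 1239, and 4-fold 161 and 47; a stricter or looser rule changes these counts by construction, and for normexp the cause was not tested. Median scaling, quantile normalization, spike-in scaling, the mean of probes and the authors' value table gave 648 to 749 higher and 313 to 378 lower. The share of counted genes that were higher was 69.7%, and 63.2% after quantile normalization, 64.4% with no filter, 61.3% at 1.5-fold and 77.4% at 4-fold. The all-gene median moved by at most 0.04 on the log2 scale under any scaling. The median of immediate early genes was 1.31 with normexp and that of the integrated stress response 1.71 with no filter. Of 360 recomputed list medians 340 moved by less than the spot SD, and 20 by more. The medians of 7 lists turned sign in 1 setting each (chemokines, sterol efflux, bipolar, amacrine and horizontal, ganglion, vascular and pluripotent), to values from -0.30 to 0.07. Of 142 named genes past 2-fold, 119 stayed past it in every setting that could give a value and 23 fell short in some, mostly dim genes with normexp. Some settings, such as detection on both arrays, leave the value of a gene they keep unchanged, so these counts are not a measure of stability.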
